A study of Homo sapiens with 2 samples.

Results

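The genes described are those whose symbols carry the names of RNA methyltransferase families, namely the METTL, TRMT, NSUN, FTSJ, MRM, RNMT, CMTR, TRDMT1 and WTAP names. The rule uses the symbol alone and no measured value, and 64 of the 26255 symbols in the deposited tables matched. RNA came from tumours that the human colon cancer cell line HT-29 had formed under the skin of female NOD SCID mice, which lack T and B cells and were 5 weeks old when procured. One library came from tumour of mice on normal food and the other from mice whose food lacked methionine, tryptophan and niacin. The design text gives 2 weeks of rearing and, elsewhere, an experiment of 3 weeks, and both groups carry the same cell line and host strain. The labels and the design text do not say whether a library holds 1 tumour or several.

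RNA methyltransferases move a methyl group from S-adenosylmethionine, the methyl donor made from methionine, onto an RNA base or ribose. Their targets include the cap and the inner adenosines of mRNA, the anticodon loops and cores of tRNA, ribosomal RNA and spliceosomal snRNA. The methyl marks are known to affect mRNA splicing, stability and translation, tRNA stability and decoding, and ribosome assembly. The METTL name marks a sequence family, and several of its members methylate proteins or small molecules instead of RNA.

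METTL16 is the member whose known RNA targets tie it most directly to S-adenosylmethionine supply. It methylates hairpins in the mRNA of MAT2A, the enzyme that makes S-adenosylmethionine, and is known to control the splicing and stability of that mRNA. In the longest MAT2A transcript of GENCODE release 29 (build GRCh38, 2819 nt), the motif TACAGAGAA or TACAGAAAA occurred 6 times on the sense strand, and all 6 lay after the stop codon, whose last base is nucleotide 1311. Each site is shown 5′ to 3′ in DNA letters with 10 bases on either side, the motif in capitals and its first base in the name.
MAT2A 1351: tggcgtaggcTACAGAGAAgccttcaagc
MAT2A 2138: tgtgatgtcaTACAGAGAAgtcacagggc
MAT2A 2323: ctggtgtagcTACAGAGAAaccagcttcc
MAT2A 2438: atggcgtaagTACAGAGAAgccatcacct
MAT2A 2553: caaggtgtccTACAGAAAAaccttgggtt
MAT2A 2661: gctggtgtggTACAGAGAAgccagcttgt
In the 6 MAT2A sites the bases before the motif and those after it, with the motif's outer base included held a self-complementary run of 5 or 6 bases. Of the longest protein-coding transcripts of 19669 genes, 7.71% held either motif on the sense strand and 2 held it 6 or more times. Among the 1900 such transcripts within 250 nt of the length of MAT2A, 6% held it.

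METTL16 was 5.70 FPKM (fragments per kilobase of transcript, scaled to the depth of the library) with normal food and 5.95 FPKM with depleted food. Differences are given as the log2 ratio of depleted to normal after 1 FPKM was added to both, which understates the difference of low genes, and for METTL16 this was 0.05. Counting error alone gave that ratio a standard error of about 0.11, so the 2 libraries were not distinguishable for METTL16. MAT2A was 159 and 184 FPKM, a log2 ratio of 0.21. Of the 1637 genes at a mean of 50 FPKM or more, 13.8% had a ratio at least as far from 0. These libraries do not show the methylation of the MAT2A mRNA.

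In both libraries the 10 markers fixed for HT-29 colon epithelium were all above 1 FPKM, with the lowest, CDX2, at 5.14 and 4.92 FPKM. Among the markers of host cell types in human gene space, 2 averaged 1 FPKM or more, namely COL1A1 at 2.33 and 2.77 FPKM and LUM at 1.99 and 0.966 FPKM. Fibroblast markers summed to 4.42 FPKM with normal food and 3.86 FPKM with depleted food over 6 genes, with DCN at 0 in both. Endothelial markers summed to 0.211 and 0.108 FPKM over 5 genes, with KDR and CLDN5 at 0 in both, and leukocyte markers to 0.454 and 0.569 FPKM over 5 genes, with CD3E at 0. Erythroid markers summed to 0.300 and 0 FPKM over 3 genes, with HBA1 and HBA2 at 0 in both, and muscle markers to 0 and 0.432 FPKM over 4 genes. The host's cells are mouse cells, so these values do not measure how many there were, and the part of mouse reads in any value below was not tested. In such bulk tumour RNA, fewer cells of a type and less RNA per cell cannot be told apart.

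With 1 library per diet there is no replicate, no test was run, and the diet and any other difference between the tumours cannot be told apart. A member was counted as higher where its ratio was at least 25% up, and as lower where it was at least 20% down, which is a log2 ratio past 0.32 either way and a rule of size only. Of the 64 members, 57 averaged 1 FPKM or more, as did 12414 genes in all, and are called measured. Among these 57, 4 were higher by this rule with depleted food (7.02%), while 6.94% of all measured genes were. None of the 57 was lower by it, against 7.15% of all measured genes. With 1 FPKM added to both, no member reached 1.5-fold, which 1.65% of all measured genes did upward and 1.52% downward, or 2-fold, which 0.524% and 0.371% did. Without that addition TRMT10B stood 1.56 times as high with depleted food, the 1 measured member past 1.5-fold. The share of members past the fold upward was thus close to that of all genes. The median log2 ratio of the members was 0.03, with quartiles of -0.07 and 0.19, and that of all measured genes was -0.0029, with quartiles of -0.13 and 0.13. Members above 0 numbered 31 of 57, where 49.4% of all measured genes were above 0, and 25 of 57 (43.9%) lay within 0.1 of 0, where 40.2% of all measured genes did. After the libraries were brought to an equal sum of FPKM, 9.01% of all genes were higher and 5.62% lower, and of the members 5 were higher, 0 lower and 39 above 0. This scaling raised the median log2 ratio of all genes to 0.04 and that of the members to 0.07. The share of all genes above 0 after it was not computed, so the 39 cannot be set against 49.4%.

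**Figure D1:**
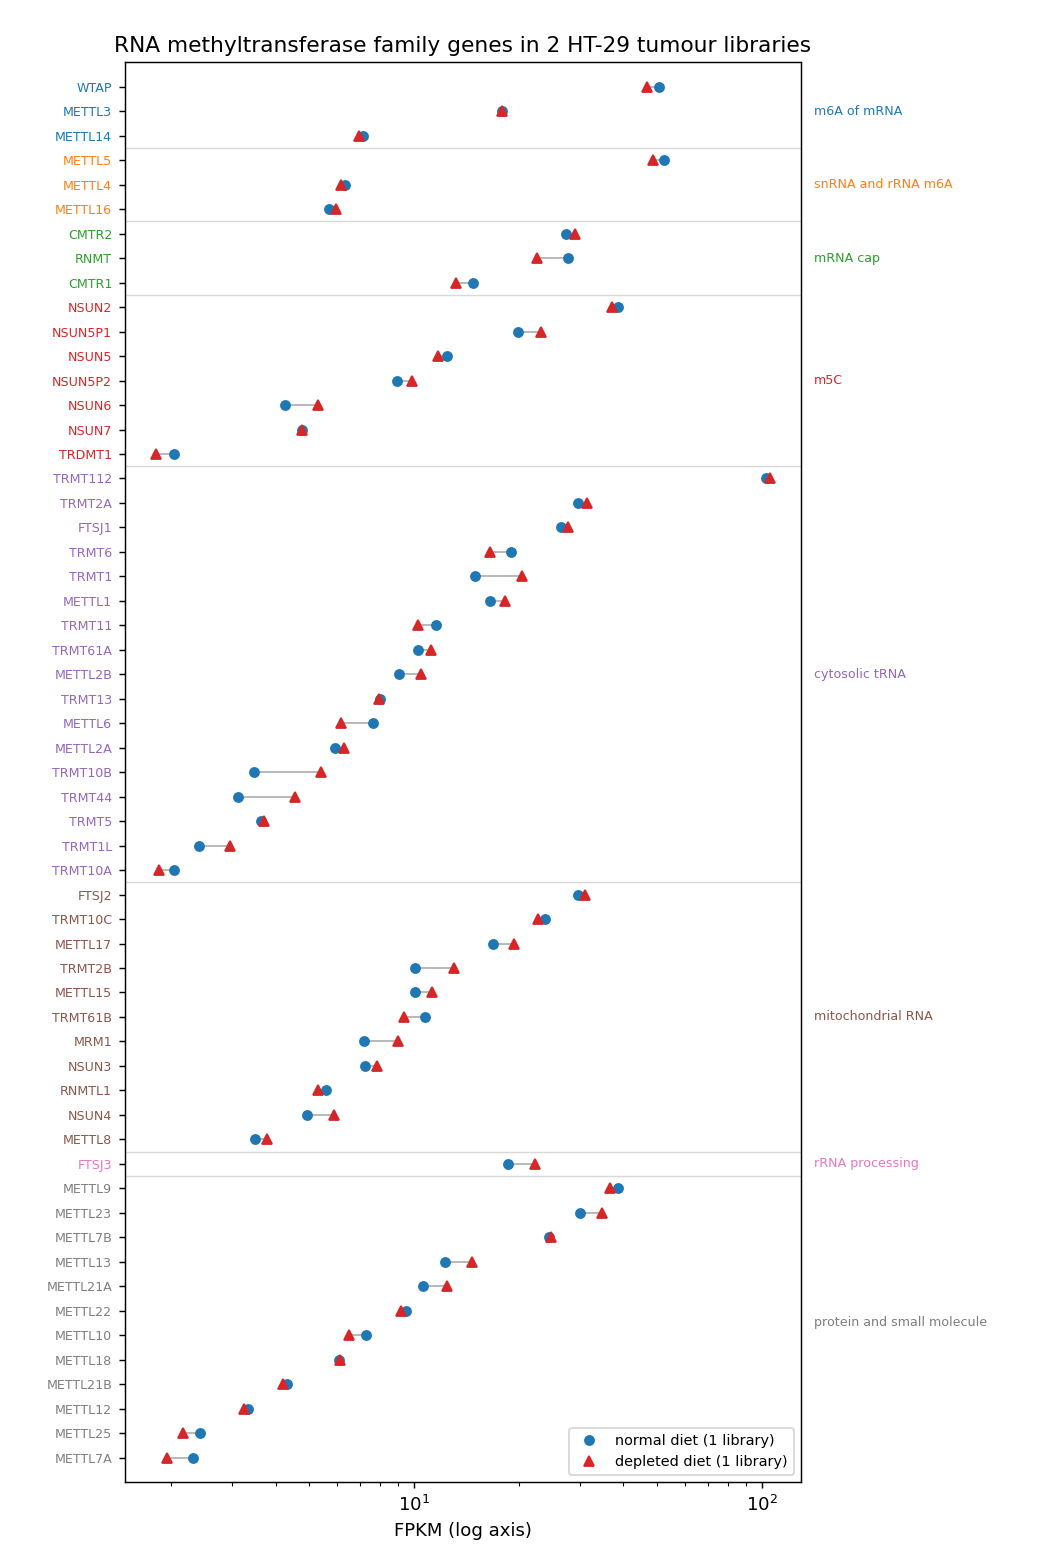
FPKM of the 57 measured members in the normal-diet library (circles) and the depleted-diet library (triangles) on a log axis, grouped by what the gene product modifies. TRMT112 stands highest at 103 and 106 FPKM, and the longest connecting lines belong to TRMT10B, TRMT44 and TRMT1.

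The levels of the members spanned a wide range that was alike in both libraries. On the normal diet the lowest measured member was TRMT10A at 2.04 FPKM, the median was 10.05 FPKM and the highest was TRMT112 at 103 FPKM. On the depleted diet the lowest was TRDMT1 at 1.80 FPKM, the median 10.3 FPKM and the highest again TRMT112 at 106 FPKM. The median of all measured genes was 12.3 and 12.4 FPKM. After TRMT112, the highest means were those of METTL5, WTAP, NSUN2 and METTL9. The level of 15 members was at least 20 FPKM, of 29 from 5 to 20 FPKM, and of 13 under 5 FPKM.

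The writer of N6-methyladenosine on mRNA is a nuclear complex whose catalytic subunit is METTL3. METTL3 was 17.9 FPKM with normal food and 17.8 FPKM with depleted food. METTL14, which binds the RNA beside METTL3, was 7.12 and 6.96 FPKM. WTAP, which holds the pair in nuclear speckles, was 50.7 and 46.8 FPKM. The 3 log2 ratios were -0.0016, -0.03 and -0.11, and none passed 0.32 either way. METTL3 was 2.51 times the level of METTL14 with normal food and 2.56 times with depleted food. METTL3 and METTL14 were thus at nearly the same values and in nearly the same proportion in both libraries.

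Methylation of adenosine in snRNA and ribosomal RNA falls to 3 further members, METTL16 among them. METTL5, which methylates 18S ribosomal RNA, was 52.4 FPKM with normal food and 48.6 FPKM with depleted food, a log2 ratio of -0.11. METTL4, which acts on U2 snRNA, was 6.33 and 6.18 FPKM. TRMT112 is a small subunit that stabilises several methyltransferases, METTL5 and TRMT11 among them, and at 103 and 106 FPKM it was 1.96 times the level of METTL5 with normal food and 2.17 times with depleted food. It was also 8.88 and 10.3 times the level of TRMT11, which places N2-methylguanosine in tRNA.

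The ratios of the 3 cap enzymes did not share a sign. RNMT, which methylates the cap guanine, was 27.6 FPKM with normal food and 22.6 FPKM with depleted food. Its log2 ratio of -0.28 was the lowest of the 57 members and did not pass -0.32. The counting error of that ratio was about 0.07, and 9.64% of the 2645 genes at a mean of 20 to 50 FPKM had a ratio at least as far from 0. CMTR1, which methylates the ribose of the first transcribed nucleotide, was 14.7 and 13.2 FPKM (log2 ratio -0.15, counting error about 0.10). CMTR2, which acts on the nucleotide after it, was 27.3 and 28.97 FPKM (0.08, counting error about 0.07). The median of the 3 was -0.15. FAM103A1, which encodes the activating subunit of RNMT, was 27.2 and 28.1 FPKM, so RNMT was close to its subunit in level with normal food and below it with depleted food.

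Enzymes of 5-methylcytosine in RNA were led by NSUN2, which acts on tRNA and other RNAs. NSUN2 was 38.6 FPKM with normal food and 36.98 FPKM with depleted food, a log2 ratio of -0.06. TRDMT1, which methylates the anticodon loop of some tRNAs and was once named as a DNA methyltransferase, was low at 2.04 and 1.80 FPKM (-0.12). Counting error of the TRDMT1 ratio was about 0.23, larger than the ratio. NSUN6, which acts on tRNA and mRNA, was 4.24 and 5.30 FPKM (0.27), and its counting error was about 0.20. NSUN7, for which no role is stated here, was 4.76 FPKM in both libraries. NSUN5, which methylates 28S ribosomal RNA, was 12.4 and 11.7 FPKM (-0.08).
The pseudogene NSUN5P1 was higher than NSUN5 itself, at 19.9 and 23.1 FPKM (0.21), and NSUN5P2 was 8.93 and 9.87 FPKM (0.13). Over an aligned stretch of 724 nt, NSUN5 and NSUN5P1 were 96.3% identical, and NSUN5 and NSUN5P2 were likewise 96.3% identical over 787 nt. Reads from the 3 genes could be split in either way by the counting, so their separate values are uncertain. In GENCODE, 71.8% of the exonic bases of NSUN5P2 also lie in exons of other genes, chiefly POM121 on the opposite strand.

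Cytosolic tRNA is the role assigned to the largest group, with 17 measured members. Each member was put in a single group, so TRMT112, which also stabilises METTL5, is counted here. Of the 4 members past 0.32, 3 were in this group. That is 17.6% of the group, against 6.94% of all measured genes. Of the 3, TRMT10B and TRMT44 averaged 2 to 5 FPKM, where 11.5% of all genes were higher by the size rule. TRMT1 places N2,N2-dimethylguanosine in tRNA. TRMT1 was 15.0 FPKM with normal food and 20.4 FPKM with depleted food. Its log2 ratio of 0.42 was 3rd among the members, with a counting error of about 0.12. Of the 2737 genes at a mean of 10 to 20 FPKM, 4.17% had a ratio at least as far from 0, and the SD of the ratio over them was 0.20. Its paralogue TRMT1L was 2.40 and 2.95 FPKM (0.22), with a counting error of about 0.16.

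TRMT10B had the highest ratio of all members. It is a paralogue of TRMT10A, which methylates a guanosine in the core of tRNA. TRMT10B was 3.46 FPKM with normal food and 5.38 FPKM with depleted food, a log2 ratio of 0.52 with a counting error of about 0.21. TRMT10A was 2.04 and 1.84 FPKM (-0.10). TRMT44, a putative ribose methyltransferase of tRNA, was 3.12 and 4.55 FPKM (0.43), also with a counting error of about 0.21. Among the 1932 genes at a mean of 2 to 5 FPKM the SD of the ratio was 0.32, 8.70% had a ratio at least as far from 0 as TRMT10B, and 13.9% as TRMT44. Both were low in level, and with a pseudocount of 5 FPKM their ratios were 0.30 and 0.23, no longer past 0.32.

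**Figure D2:**
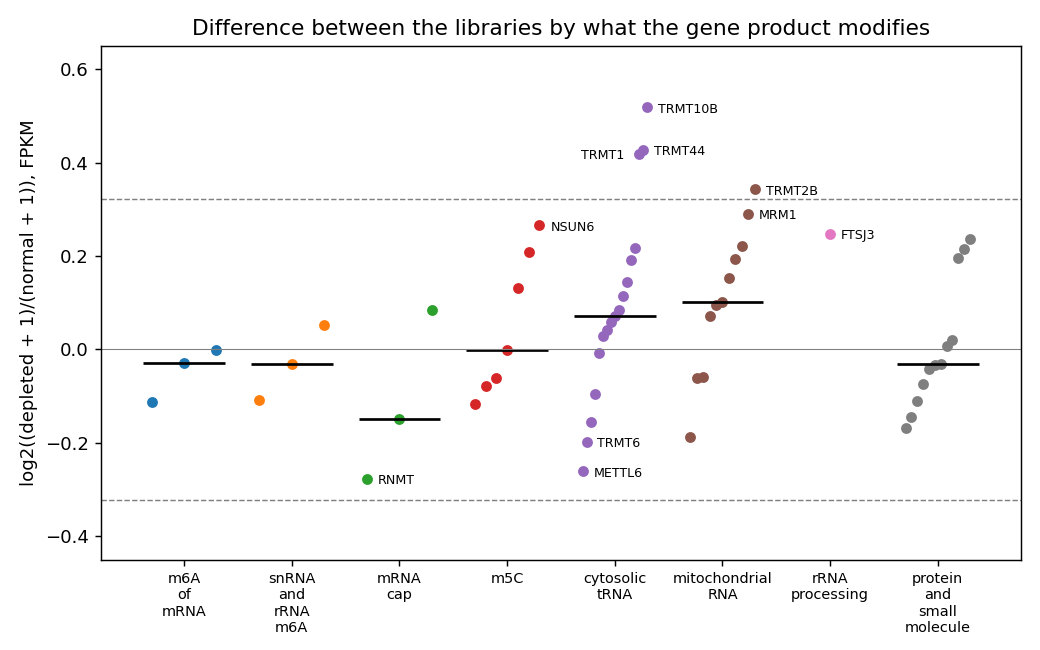
Log2 ratio of depleted to normal FPKM (1 FPKM added to both) for each of the 57 measured members, by what the gene product modifies; black bars are group medians where a group has at least 3 members, and dashed lines mark 0.32 either way. TRMT10B, TRMT44, TRMT1 and TRMT2B lie above the upper line and no member lies below the lower one.

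The enzyme of 1-methyladenosine in the tRNA core is made of TRMT61A, which is catalytic, and TRMT6, which helps bind the tRNA. TRMT6 was 19.1 FPKM with normal food and 16.5 FPKM with depleted food, a log2 ratio of -0.20. TRMT61A was 10.3 and 11.2 FPKM, a log2 ratio of 0.11. TRMT6 was 1.85 times the level of TRMT61A with normal food and 1.47 times with depleted food. The log2 ratios of the subunits had opposite signs, neither past 0.32. Their counting errors were about 0.11 and 0.12, so TRMT61A did not differ between the libraries beyond counting.

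METTL1, which places 7-methylguanosine in tRNA, was 16.5 FPKM with normal food and 18.3 FPKM with depleted food (log2 ratio 0.14). WDR4, its partner subunit and not a member by name, was 6.37 and 10.6 FPKM, and its log2 ratio of 0.66 was the highest among the members' partners. Of the 2360 genes at a mean of 5 to 10 FPKM, 1.53% had a ratio at least as far from 0 as WDR4. METTL1 was therefore 2.59 times the level of WDR4 with normal food and 1.73 times with depleted food.

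Enzymes of 3-methylcytosine in cytosolic tRNA comprise METTL2A, METTL2B and METTL6. METTL6, which acts on serine tRNA, was 7.60 FPKM with normal food and 6.18 FPKM with depleted food. Its log2 ratio of -0.26 was next to the lowest of the members, with a counting error of about 0.22. METTL2A was 5.92 and 6.27 FPKM, and METTL2B was 9.05 and 10.5 FPKM. Their transcripts were 96.5% identical over 3156 aligned positions, so how reads were divided between them is uncertain.

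The other tRNA enzymes lay between -0.16 and 0.08. TRMT11 was 11.5 FPKM with normal food and 10.3 FPKM with depleted food (-0.16). FTSJ1, which methylates riboses of the anticodon loop, was 26.5 and 27.6 FPKM (0.06). Its partner WDR6 was 37.3 and 40.3 FPKM (0.11), and THADA, its other partner, 7.80 and 8.40 FPKM (0.10). TRMT2A, which makes 5-methyluridine, was 29.7 and 31.5 FPKM (0.08). TRMT13, a ribose methyltransferase of the acceptor stem, was 7.99 and 7.95 FPKM, and TRMT5, which methylates the guanosine beside the anticodon, was 3.62 and 3.71 FPKM. The median of the 17 was 0.07, and 12 were above 0 (70.6%), where 49.4% of all measured genes were.

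Mitochondrial RNA is modified by enzymes encoded in the nucleus. NSUN3 and METTL8 each act on the anticodon loop of mitochondrial tRNAs, and a target of each is shown 5′ to 3′ from GENCODE release 29 in DNA letters, with the methylated base in capitals. In the methionine tRNA this is the first anticodon base, and in the threonine tRNA it lies 2 positions before the anticodon.
MT-TM (NSUN3): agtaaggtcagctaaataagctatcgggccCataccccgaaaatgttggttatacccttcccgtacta
MT-TT (METTL8): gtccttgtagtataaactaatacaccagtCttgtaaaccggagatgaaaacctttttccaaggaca
NSUN3 was 7.21 FPKM with normal food and 7.82 FPKM with depleted food (0.10). METTL8 was 3.48 and 3.78 FPKM (0.09). Counting errors of the ratios were about 0.14 and 0.15, so neither differed between the libraries beyond counting.

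Of the 11 measured mitochondrial members 8 were above 0 (72.7%), where 49.4% of all measured genes were. The median of the 11 was 0.10, the highest of the groups with at least 3 members, and that of all measured genes was -0.0029. For NSUN3, METTL8 and FTSJ2, which are among the 8, the ratio was smaller than its counting error. TRMT2B, which makes 5-methyluridine in mitochondrial RNA, was 10.1 FPKM with normal food and 13.0 FPKM with depleted food. Its log2 ratio of 0.34 passed 0.32, with a counting error of about 0.12, and 8.40% of genes at a mean of 10 to 20 FPKM had a ratio at least as far from 0. With a pseudocount of 5 FPKM the TRMT2B ratio was 0.26, no longer past 0.32, so that TRMT1 (0.34) was then the 1 member that passed. MRM1, a ribose methyltransferase of 16S ribosomal RNA, was 7.17 and 8.99 FPKM (0.29). MRM1 was just past the size rule with a pseudocount of 0.1 FPKM (0.3226) or at an equal sum of FPKM (0.3323).

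The other enzymes of the mitochondrial large ribosomal RNA were FTSJ2, now named MRM2, at 29.5 FPKM with normal food and 31.1 FPKM with depleted food (0.07), and RNMTL1, now MRM3, at 5.56 and 5.29 FPKM (-0.06). In GENCODE 36.4% of the exonic bases of RNMTL1 lie in exons of other genes, chiefly GLOD4 on the opposite strand, which was 30.1 and 22.1 FPKM. For the small ribosomal subunit, METTL15, which makes N4-methylcytosine, was 10.05 and 11.3 FPKM (0.15). NSUN4, which makes 5-methylcytosine there, was 4.92 and 5.90 FPKM (0.22), while its partner MTERF4 was 17.0 and 15.6 FPKM (-0.11). METTL17, an assembly factor of that subunit, was 16.8 and 19.4 FPKM (0.19).

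TRMT10C is a subunit of mitochondrial RNase P, the enzyme that frees tRNAs from the mitochondrial transcript, and it methylates the tRNA core. TRMT10C was 23.7 FPKM with normal food and 22.7 FPKM with depleted food (-0.06). The other RNase P subunits were HSD17B10 at 69.1 and 63.0 FPKM (-0.13) and KIAA0391, which encodes the nuclease, at 8.31 and 8.18 FPKM (-0.02). The 3 subunits thus differed little between the libraries. TRMT10C was 6.87 times the level of its paralogue TRMT10B with normal food and 4.22 times with depleted food. TRMT61B, which makes 1-methyladenosine in mitochondrial RNA, was 10.8 and 9.33 FPKM (-0.19).

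FTSJ3, a nucleolar enzyme that methylates riboses of precursor ribosomal RNA, was 18.6 FPKM with normal food and 22.3 FPKM with depleted food. Its log2 ratio was 0.25, with a counting error of about 0.09, and 13.3% of genes at a mean of 20 to 50 FPKM had a ratio at least as far from 0.

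Another 12 measured members carry the METTL name but are known or thought to act on proteins or small molecules, or were put here because no RNA target is stated. Of these, 5 were above 0, where 49.4% of all measured genes were, and 7 below. Their median was -0.03, and none passed 0.32 either way. METTL13, which methylates the elongation factor eEF1A, was 12.3 FPKM with normal food and 14.7 FPKM with depleted food (0.24). METTL21A, which methylates HSP70 chaperones, was 10.6 and 12.4 FPKM (0.22). METTL23, a histone arginine methyltransferase, was 30.1 and 34.6 FPKM (0.20). These were the highest 3 of the 12.

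The others of that group were at or below a log2 ratio of 0.02. METTL9, which methylates histidines of proteins, was 38.5 FPKM with normal food and 36.5 FPKM with depleted food (-0.07). METTL7B, a thiol methyltransferase, was 24.4 and 24.7 FPKM, and its paralogue METTL7A was 2.31 and 1.95 FPKM (-0.17), the lowest ratio of the 12. METTL10, an eEF1A lysine methyltransferase, was 7.29 and 6.50 FPKM (-0.14), and 43.0% of its exonic bases lie in exons of another gene. METTL18, which methylates a ribosomal protein, METTL22, METTL21B, METTL12 and METTL25 ranged from -0.11 to 0.0066.

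**Figure D3:**
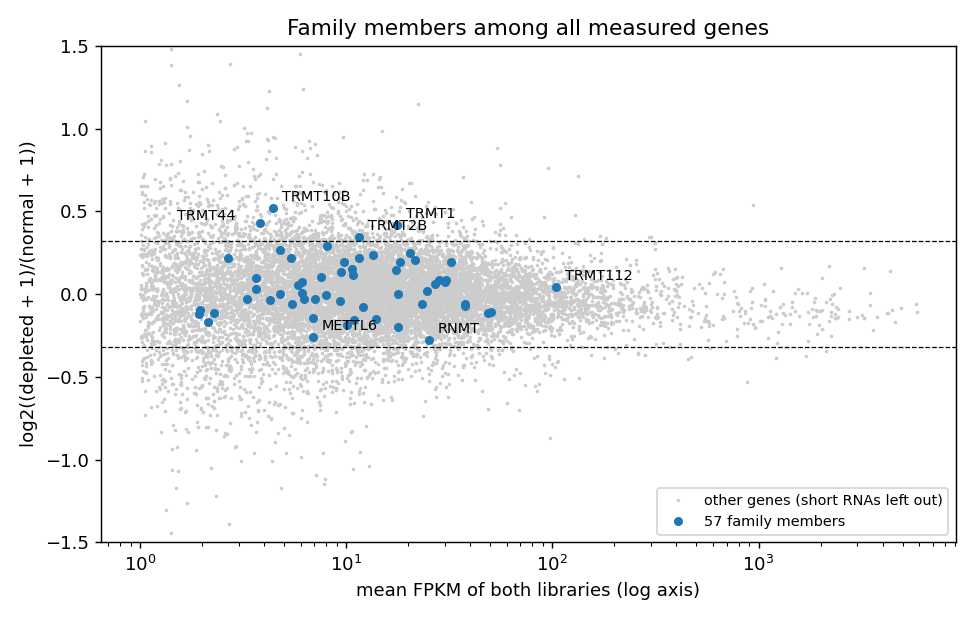
Log2 ratio of depleted to normal FPKM against mean FPKM (log axis) for the 57 measured members (blue) and the other measured genes (grey), short RNAs left out; dashed lines mark 0.32 either way, and 19 grey genes beyond 1.5 on the vertical axis are not drawn. The members lie within the cloud of other genes at every level.

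The spread of all genes narrowed as the level rose, which sets the scale for the members. The SD of the log2 ratio, short RNAs left out, was 0.41 at a mean of 1 to 2 FPKM, 0.32 at 2 to 5, 0.24 at 5 to 10, 0.20 at 10 to 20, 0.17 at 20 to 50 and 0.15 at 50 FPKM or more. The shares of genes higher by the size rule in these ranges ran from 17.1% down to 1.53%. TRMT10B and TRMT44 were among the 11 members in the range of 2 to 5 FPKM, where 11.5% of all genes were higher by it. TRMT1 and TRMT2B were among the 14 members in the range of 10 to 20 FPKM, where 4.71% of all genes were. Where exons of neighbouring genes overlap, reads cannot be assigned with certainty, since the strand setting of the counting is unknown. Of these 4 members, TRMT44 shared 2.26% of its exonic bases with another gene in GENCODE, and TRMT1, TRMT10B and TRMT2B shared none. Some other members overlapped opposite-strand genes of higher level. Among them, TRMT2A shared 12.8% of its exonic bases, chiefly with RANBP1 at 218 FPKM with normal food and 226 FPKM with depleted food. METTL5 shared 19.6% with SSB at 99.96 and 103 FPKM, and FTSJ3 shared 9.33% with PSMC5 at 86.7 and 96.7 FPKM.

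Genes that act with the members but carry other names were taken from a list of partners, readers, erasers, other RNA methyltransferases and S-adenosylmethionine supply. Of 50 such genes 49 were measured. Of these, 4 were higher by the size rule (8.16%, against 6.94% of all genes) and 3 lower (6.12%, against 7.15%), and the median was 0.06. The 4 higher genes were WDR4, BCDIN3D, NOP2 and C9orf114, and the 3 lower ones were PCIF1, THUMPD2 and EMG1.

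Partners of the N6-methyladenosine writer ranged from -0.10 for KIAA1429, which encodes the scaffold VIRMA (15.2 FPKM with normal food and 14.1 FPKM with depleted food), to 0.13 for CBLL1 (8.95 and 9.87 FPKM). The readers, proteins that bind the methylated base, were all 8 above 0, where 49.4% of all measured genes were, and none was past 0.32. Scaling to a common sum or to a common upper quartile raised the ratios, so neither could bring a reader below 0. The reader with the highest ratio was YTHDF2, which promotes decay of methylated mRNA, at 38.4 and 43.7 FPKM (0.18), and the lowest IGF2BP3, at 38.4 and 38.6 FPKM. IGF2BP1 was under 0.1 FPKM in both libraries.
The 4 erasers, which remove methyl groups from nucleic acids, were all below 0, where 6282 of 12414 measured genes were, with none past -0.32. They stayed below 0 under both other scalings, but at a common sum ALKBH5 was only -0.0022 and FTO -0.02. ALKBH1 was 3.57 and 2.94 FPKM (-0.22), ALKBH3 19.2 and 16.7 FPKM (-0.19), FTO 7.55 and 7.17 FPKM (-0.07) and ALKBH5 22.9 and 22.2 FPKM (-0.05). Neither the readers nor the erasers were compared with a replicate, and their ratios were within the SD of genes of like level, except for YTHDF2, which was just beyond it.

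**Figure D4:**
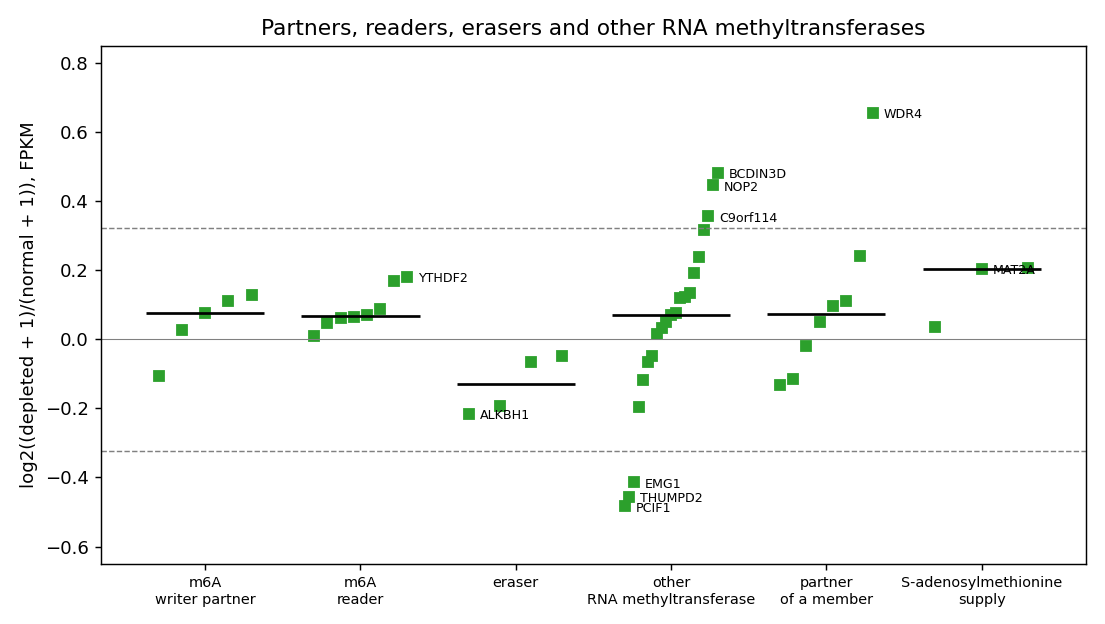
Log2 ratio of depleted to normal FPKM for 49 measured genes that act with the members but carry other names, by class; black bars are class medians and dashed lines mark 0.32 either way. WDR4 stands highest at 0.66 and PCIF1 lowest at -0.48.

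Among 21 genes listed as other RNA methyltransferases, ratios ran from -0.48 to 0.48; HEMK1 and N6AMT1 of that list methylate proteins. PCIF1, which methylates the adenosine next to the cap, was 29.6 FPKM with normal food and 20.9 FPKM with depleted food (-0.48). Of genes at a mean of 20 to 50 FPKM, 1.248% had a ratio at least as far from 0 as PCIF1. EMG1, which acts on 18S ribosomal RNA, was 35.96 and 26.7 FPKM (-0.41), and THUMPD2 was 8.16 and 5.68 FPKM (-0.46). In the other direction, NOP2, an NSUN family enzyme of 28S ribosomal RNA under another name, was 30.4 and 41.8 FPKM (0.45), and 1.70% of genes of like level had a ratio at least as far from 0. BCDIN3D, which acts on histidine tRNA, was 1.79 and 2.90 FPKM (0.48), and C9orf114, now SPOUT1, was 10.1 and 13.2 FPKM (0.36). For S-adenosylmethionine supply, MAT2B, the regulatory subunit beside MAT2A, was 33.6 and 38.8 FPKM (0.21), and AHCY, which clears the product of methylation, was 170 and 174 FPKM (0.04).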

How the data were processed

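The deposited values are FPKM per gene symbol, per the file headers, 1 table for each of 2 libraries. Per the submitters' processing notes, the authors used Cuffdiff 2.2.1, SAMtools 0.1.18, TopHat2 2.1.1 and Bowtie2 2.2.8 with build hg19; the step each tool did is not recorded there. Libraries were stranded mRNA libraries, per the labels' protocols. No source used here gives the strand setting, the annotation or any removal of mouse reads.

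The rule for members reads gene symbols only, but the gene families and lists were chosen with earlier results of these data known, and roles of 3 symbols were added after the tables were read. Every measured member could be named, and of other genes the extremes of each class, direct partners and MAT2A. Other pathway genes with values (EMG1, THUMPD2, NOP2, C9orf114, ALKBH3 and FTO) were chosen after their values were seen. Alternatives covered pseudocount, filter, scaling, fold and membership. The log2 ratio used a pseudocount of 1 FPKM, and 98 short RNAs were left out of the spread by level. FPKM are not counts, so no count model was run. Depth was estimated from low values of 102 and 123 single-transcript genes. FPKM times transcript length in nt, kept from 100 to 170, was taken to stand for 1 fragment. This gave about 7.17e+06 and 6.90e+06 fragments, estimates that the chosen window limits in advance. Counting errors use this depth with GENCODE transcript lengths, so they are approximate, and they cover counting only. In simulated data of 12414 genes with counting noise only and the same length for all transcripts, changed genes were drawn from those averaging at least 5 FPKM. Of 100 such genes with 1.5-fold differences, 97% were past the size rule of 25% up or 20% down. The simulation does not cover members under 5 FPKM or differences between tumours. Python 3.11.15, pandas 2.3.3 and BLASTN 2.17.0 were used. All 57 measured members matched GENCODE 29 (GRCh38), 5 under another symbol, and 28 shared exonic bases with another gene.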

Additional observations from a re-analysis of the deposited data

How the results depend on the processing

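No paired analysis was possible because there is a single library per diet; leaving one out was not possible either. Against 4 members higher by the size rule, there was 1 with a pseudocount of 5 FPKM, 2 with the filter at 5 FPKM, and 0 at a fold of 1.5 or of 2, since these choices let fewer genes pass by construction. At a fold of 1.5 with a pseudocount of 0.1 FPKM, chosen after seeing the data, there was 1, TRMT10B (0.62), and 2.95% of all measured genes were higher. None was lower under any alternative run, but most of them could not have added one. Both scalings raised the ratios, and a higher fold, a pseudocount of 5 FPKM, a stricter filter or a shorter list only removes members. Only a pseudocount of 0.1 FPKM or no filter could have added a lower member. The other 76 summary values were close to those reported, with counts within 1.5 times and medians within 0.1. The median of the members ran from 0.01 to 0.07. Scaling to a common sum changed the sign of 8 of 57 members, none of them further than 0.04 from 0 as reported, and of the group medians of mRNA N6-methyladenosine (0.01), snRNA and rRNA (0.0093), 5-methylcytosine (0.04) and proteins (0.0052). Of 329 single members' values, 324 kept their side of the size rule, 3 no longer passed it and 2 newly did; 5 moved by over 0.1, all with another pseudocount. Counting error was highest for TRMT13, about 0.29 on the log2 scale.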

Other observations

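The 7 members under a mean of 1 FPKM give no comparison at this depth. METTL11B, which methylates protein N termini, was 0.345 FPKM with normal food and 0.179 FPKM with depleted food. METTL20, which methylates the electron transfer flavoprotein, was 0.471 and 0.671 FPKM, and the pseudogene METTL21EP 0.181 and 0.438 FPKM. TRMT12, an enzyme of wybutosine synthesis on phenylalanine tRNA, was 0.0630 FPKM with normal food and listed at 0 with depleted food. METTL21C, METTL24 and the pseudogene WTAPP1 were listed at 0 in both libraries.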
